A study of Mus musculus with 12 samples.

Results

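Acyclic retinoid (ACR), a synthetic retinoid studied against liver cancer, was compared with a normal diet in the livers of LiK mice, across all genes. The comparison used 6 of the 12 RNA sequencing libraries of the study, 3 from LiK mice on the ACR diet and 3 from LiK mice on the normal diet. All mice were male and 4 months old when killed, and the liver tissue taken was free of tumour. The ACR diet held 0.06% ACR and was started at 5 weeks. The labels give no genotype. By background knowledge of the work, LiKM mice, which make up the other 6 libraries, are meant to lack Mdm2 in hepatocytes and LiK mice are not. The whole-gene counts of Mdm2 do not show this loss: they stood at 35, 30.4 and 29 CPM in LiKM mice on the normal diet and 31.8, 47.6 and 67.2 CPM on ACR, above the 24.1, 23.4 and 25.8 CPM of LiK mice on the normal diet. Which exons would be deleted is not given in the labels. Other alleles that the strains share are not described here, and no mice outside these strains are analysed. Each replicate is a separate mouse by its title. Their identifiers begin with KM or MP, with a meaning that the labels do not state. All 3 mice on ACR and mouse 1 on the normal diet are KM, while mice 2 and 3 on the normal diet are MP, so no comparison of diets can be made within MP and the KM mice hold 1 mouse on the normal diet.

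Retinoids act through nuclear retinoic acid receptors, which sit on DNA with retinoid X receptors at paired half-sites, often a direct repeat spaced by a few bases. Cyp26a1, the cytochrome P450 that oxidises retinoic acid, and Rarb, a retinoic acid receptor, are textbook targets with such an element in their promoters. The liver also runs a circadian clock. Arntl and Clock switch on Per, Cry, Nr1d1 and Dbp through E-boxes, and Nr1d1 and Nr1d2 in turn repress Arntl, Nfil3 and Cry1 through ROR elements. Genes of this loop, and genes of sterol, fat and sugar metabolism under it, are known to cycle over the day.

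The promoter stretches below come from RefSeq (GRCm38.p6, which is mm10) and show one element for each system that the results turn on, with the searched motif in capitals. Motifs were sought on both strands in the 250 bases before the start, in the 10462 of 13880 tested genes with a RefSeq promoter. The start is that of the RefSeq window. Bases just after it were found in 1, 3, 2 and 1 annotated transcripts of Cyp26a1, Rarb, Ciart and Nfil3. For Hmgcs1 and Mcm5 the number was 0. Transcripts that start before a printed stretch were not counted. The Cyp26a1, Rarb and Nfil3 stretches lie within the annotated span of their genes, and those of Ciart, Hmgcs1 and Mcm5 lie outside it.
Cyp26a1: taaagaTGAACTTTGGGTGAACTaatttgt
Rarb: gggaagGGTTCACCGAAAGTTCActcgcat
Ciart: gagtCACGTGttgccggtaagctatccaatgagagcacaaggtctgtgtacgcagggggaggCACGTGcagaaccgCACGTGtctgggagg
Nfil3: gcgctcggaacTGACCTActaac
Hmgcs1: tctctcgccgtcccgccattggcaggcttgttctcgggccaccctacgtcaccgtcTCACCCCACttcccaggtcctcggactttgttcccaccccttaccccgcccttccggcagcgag
Mcm5: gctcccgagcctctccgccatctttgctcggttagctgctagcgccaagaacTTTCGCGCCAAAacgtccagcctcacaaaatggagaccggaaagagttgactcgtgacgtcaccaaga
The Cyp26a1 stretch (chr19:37697770-37697799, plus strand) and the Rarb stretch (chr14:16575506-16575535, minus strand) hold the retinoic acid receptor element known as DR5, 2 half-sites spaced by 5 bases. Only 4 of the 10462 promoters (0.0382%) hold it. Ciart (chr3:95882258-95882348, minus strand) holds 3 E-boxes, CACGTG, a motif found in 9.68% of all promoters and in 4 of 10 clock genes that peak from midday to dusk. Nfil3 (chr13:52981040-52981062, minus strand) holds a reverse ROR element, TAGGTCA, found in 2.27% of promoters. Hmgcs1 (chr13:119690158-119690277, plus strand) holds the sterol element TCACNCCAC, found in 1.34% of promoters and in no other of the 17 cholesterol synthesis promoters. Mcm5 (chr8:75109304-75109423, plus strand) holds a pair of overlapping E2F elements, TTTNNCGC, on opposite strands. That motif is in 7.8% of promoters and in 5 of 24 cell cycle promoters. The CCAAT box, CCAAT, is in 40.3% of all promoters, in 16 of 17 cholesterol synthesis promoters and in 19 of 24 cell cycle promoters. A match is a description of these letters and not a measured site.

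LiK libraries held 13967196 to 18647156 counts. Levels are CPM, a library's counts rescaled to a common total, further scaled by library factors of 0.83 to 0.975. Albumin took 8.01% to 10.9% of counts on the normal diet against 10.6% to 12.4% on ACR, and hepatocyte markers summed to 144286 to 195006 CPM and 177726 to 187699 CPM, with hepatocyte genes high in every library. In a principal component analysis of these 6 libraries the diets were parted by component 1, with 41.1% of the variance (-24.5 to -24.1 on the normal diet, 20.5 to 26.8 on ACR). On component 2 (22.2%), mouse 2 on the normal diet lay at -33.9 and the others between -5.04 and 25.9.

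Of 13880 genes tested, 27 changed on ACR in LiK livers, or 0.195%, in a quasi-likelihood fit of edgeR to all 12 libraries at an adjusted p (Benjamini-Hochberg) under 0.05. Of these 18 rose (0.13%) and 9 fell (0.0648%). At least 2-fold changes were found in 16 that rose and 6 that fell. The fit to the 6 LiK libraries alone, which does not carry the larger spread within the LiKM groups, called 812 of 12803 genes (6.34%), 348 higher (2.72%) and 464 lower (3.62%). The common biological coefficient of variation was 0.203 with 12 libraries and 0.154 with 6. All 27 genes passed in both fits, and their diet groups did not overlap. Over all genes tested, 13.4% had all ACR mice above all normal diet mice and 14.6% had them below, and the median log2 fold change was 0.01. Below, "rose" and "fell" refer to the 12-library fit, and genes that passed only with the LiK libraries are said to be called in the 6-library fit. The 12-library count fell to 0 without mouse 2 or 3 on the normal diet or without mouse 1 on ACR (edgeR, with 1461 to 1745 genes at an unadjusted p under 0.05), while all 27 genes kept their sign in each of these fits.

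Clock genes of both arms of the loop were called in the 6-library fit, and none in the 12-library fit. Dbp, an output factor of the clock, stood at 35.9, 25.6 and 31.8 CPM in the mice on the normal diet and at 139, 137 and 136 CPM on ACR. Nr1d1, the repressor of the loop, stood at 23.2, 27.2 and 16.1 CPM against 136, 181 and 153 CPM. Arntl, the activator, stood at 5.85, 5.77 and 6.53 CPM on the normal diet and at 0.721, 1.73 and 0.892 CPM on ACR. In all 3 genes the diet groups lay far apart and the mice of a group lay close together. The log2 fold changes were 2.14 for Dbp (SE 0.72, edgeR adjusted p = 0.235), 2.81 for Nr1d1 (SE 1.15, 0.314) and -2.42 for Arntl (SE 0.63, 0.144). The 12-library spread includes LiKM mice that differ from each other in these genes. In the 6-library fit the edgeR adjusted p was 0.000365 for Dbp, 0.00174 for Nr1d1 and 0.00467 for Arntl.

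Of the 5 clock genes that peak around dawn, 4 were called lower in the 6-library fit, against 3.62% of all genes. The same 4 had ACR mice all below normal diet mice, against 14.6% of all genes. Besides Arntl these were Nfil3 (mean 21.4 ± 6.15 CPM on the normal diet against 6.52 ± 0.544 on ACR, SD, n = 3, as for all group means), Cry1 (27.2 ± 4.16 and 7.9 ± 2.79) and Clock (46.7 ± 3.58 and 34.8 ± 2.52). Npas2, the fifth, had at most 2 counts in a mouse on the normal diet against 1, 8 and 5 on ACR. Of the 12 that peak from midday to dusk, 6 were called higher and 1 lower, against 2.72% and 3.62% of all genes. Those called higher were Dbp, Nr1d1, Nr1d2 (86.9 ± 3.45 and 133 ± 13.8 CPM), Ciart (6.85 ± 0.664 and 25 ± 7.38), Bhlhe41 (3.22 ± 0.261 and 12.6 ± 3.21) and Per1 (35.3 ± 4.51 and 67.4 ± 10.7). Per2, a repressor that peaks toward dusk, was called lower (99.5 ± 16.6 and 61 ± 2.29 CPM). The remaining 5 genes were not called in either fit, with log2 fold changes of 0.19 for Tef, -0.26 for Hlf, 0.41 for Per3, -0.37 for Bhlhe40 and -0.06 for Cry2. Among clock outputs, Nampt, the enzyme of NAD salvage, stood at 116 ± 26 and 63.6 ± 5.26 CPM and was called lower in the 6-library fit.

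**Figure D1:**
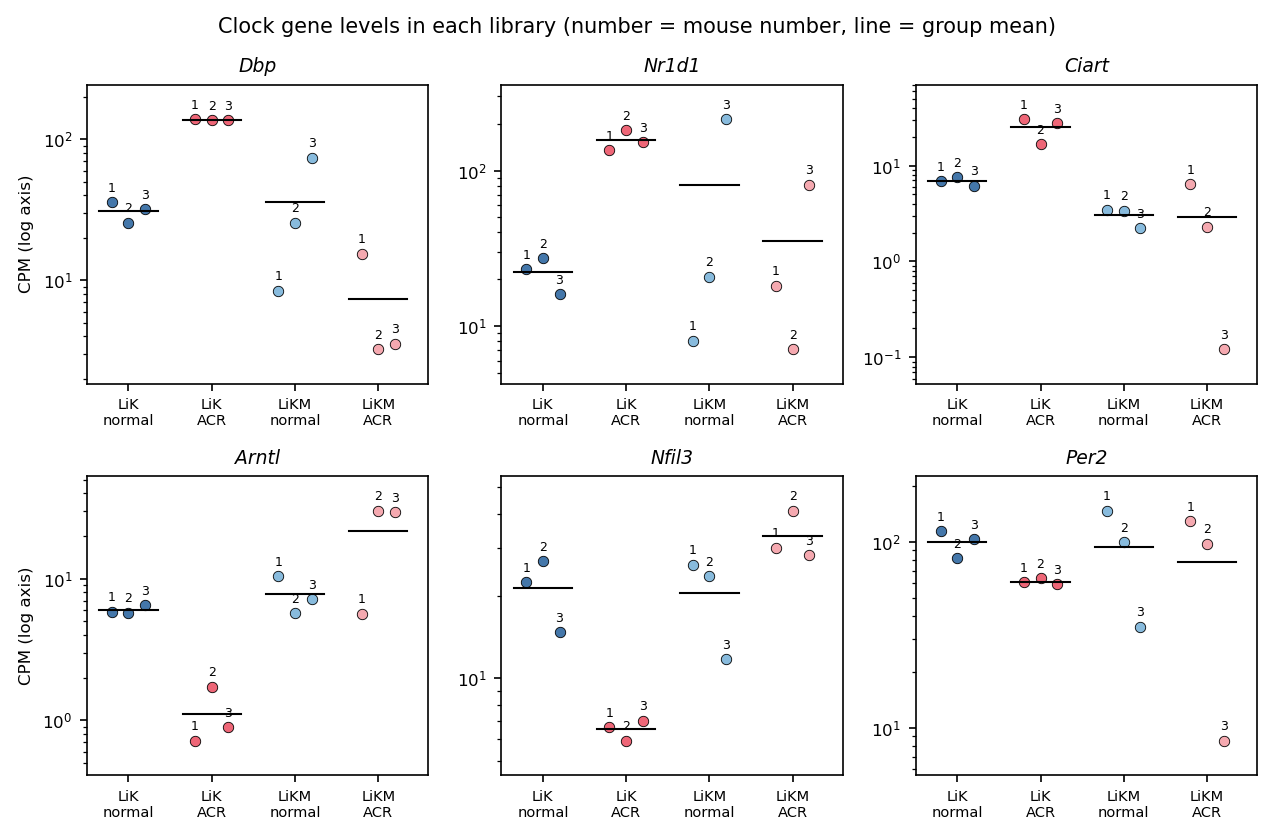
Levels of 6 clock genes in CPM on a log axis for each of the 12 mice, by strain and diet, with the mouse number beside each point and a line at the group mean. The LiK diet groups are separate in all 6 genes, while within LiKM mouse 3 on the normal diet and mice 2 and 3 on ACR stand apart from the rest of their groups in some of them.

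The sources used here do not state the hour of collection. The first 2 principal components of the 17 core clock genes over the 12 libraries held 64.5% and 26.3% of their variance. LiK mice on the normal diet lay at 0.886 to 0.999 on the first and 1.76 to 1.94 on the second, and those on ACR at 4.2 to 5.88 and -2.56 to -1.65. Diet and clock phase do not overlap within LiK and cannot be told apart there. With both components as covariates, edgeR called 0 genes for diet, with 1000 genes at an unadjusted p under 0.05 against 1953 without them.

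Cyp26a1 (chromosome 19, 37697738 to 37701536) had the largest fall of the 27 genes. In mice on the normal diet it stood at 2.68, 2.94 and 2.68 CPM (38, 52 and 32 counts), and on ACR at 0.216, 0.466 and 0.274 CPM (3, 7 and 4 counts). Every mouse on ACR lay well below every mouse on the normal diet. The fall was 8.43-fold (log2 -3.08, SE 0.39, edgeR adjusted p = 0.017), with few counts behind the ACR level. The same direction was seen in the LiKM mice, at 3.06, 5.49 and 3.5 CPM on the normal diet and at 0.933, 0.746 and 0.427 CPM on ACR (log2 -2.50, SE 0.35, edgeR adjusted p = 0.0609). With both clock components as covariates the LiK value was -3.29 on the log2 scale and no longer passed (edgeR adjusted p = 0.28).

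Rarb, whose promoter holds the same kind of element, stood at 5.14, 4.75 and 5.78 CPM on the normal diet and at 4.4, 4.26 and 6.24 CPM on ACR. Its diet groups overlapped (log2 -0.07, SE 0.21, edgeR adjusted p = 0.911). Of 23 tested genes of retinoid response and metabolism, Cyp26a1 was the only one that passed in the 12-library fit. In the 6-library fit 2 were called higher and 2 lower, against 2.72% and 3.62% of all genes. ACR mice lay all above normal diet mice in 4 and all below in 4, against 13.4% and 14.6% of all genes. The list's median log2 fold change was -0.01. The 2 called higher in the 6-library fit were Rdh9, a retinol dehydrogenase of the short-chain family (90 ± 17.1 and 177 ± 30.7 CPM, log2 0.98), and Tgm2, the tissue transglutaminase (112 ± 5.68 and 150 ± 12.1 CPM, log2 0.42). Rdh9 has values that are not whole in 12 libraries, so its reads may be shared with similar genes, and it is uncertain.

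**Figure D2:**
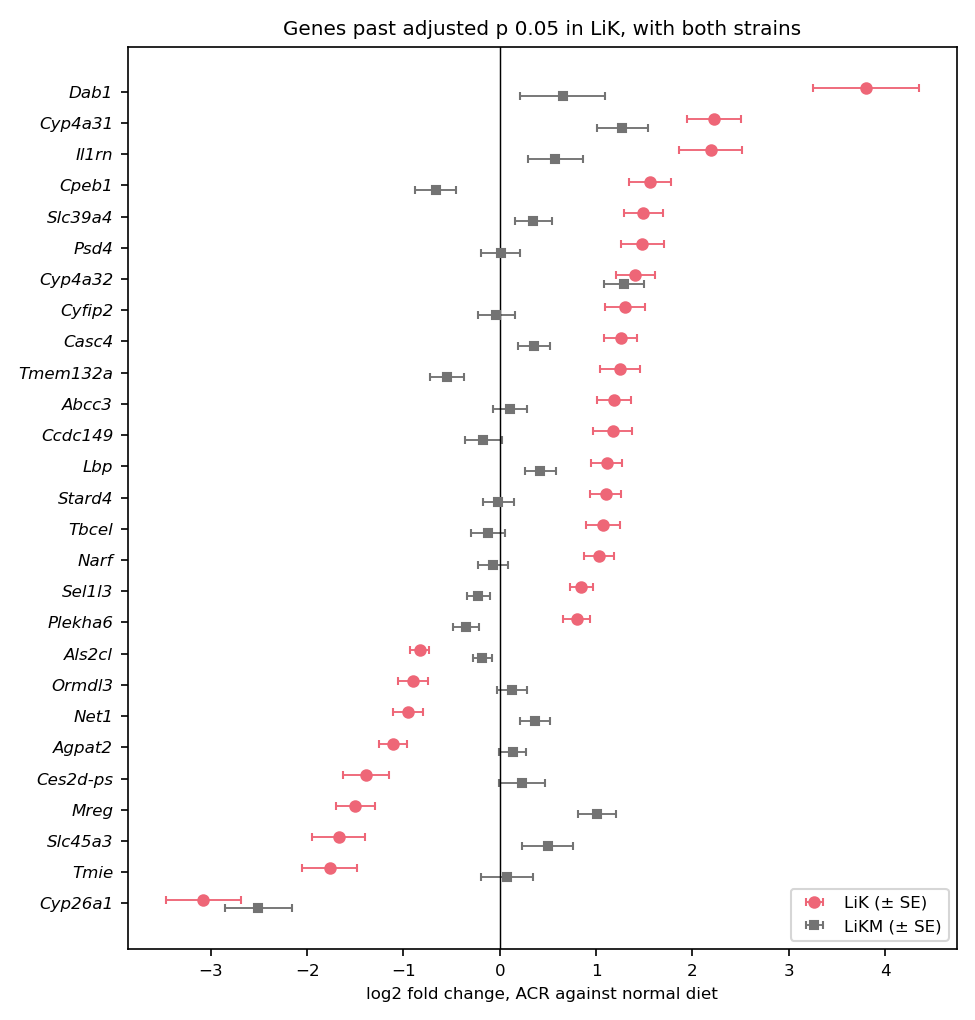
Log2 fold changes of the 27 genes past adjusted p 0.05 in LiK, ACR against normal diet, in LiK (circles) and LiKM (squares), with standard errors from the 12-library edgeR fit. Of the 27, 11 lie on the same side of 0 in both strains, among them Cyp26a1, Cyp4a31 and Cyp4a32. Mreg, Cpeb1 and Tmem132a are among those on opposite sides.

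Among the genes that rose were 2 of the Cyp4a cluster on chromosome 4, which encodes omega-hydroxylases of fatty acids and is known as a target of the nuclear receptor PPAR alpha. Cyp4a32 (115600927 to 115622507) stood at 23.8, 19.6 and 22.2 CPM on the normal diet and at 57.4, 40.8 and 75.7 CPM on ACR, a 2.65-fold rise (log2 1.41, SE 0.20, edgeR adjusted p = 0.02). Cyp4a31 (115563627 to 115579015) stood at 4.23, 3.96 and 5.78 CPM against 18, 15 and 31.8 CPM, a 4.67-fold rise (log2 2.22, SE 0.28, edgeR adjusted p = 0.017). Mouse 3 was the highest of the ACR mice in both. Members of this cluster are similar in sequence. The values of Cyp4a31 and Cyp4a32 are not whole in 12 libraries and those of Cyp4a10 in 11, so the split of reads between these genes is uncertain. The values of Cyp4a14 are whole in all libraries. Cyp4a10 stood at 13.6, 23.5 and 24.1 CPM against 83.9, 68.3 and 228 CPM, and Cyp4a14 at 0.845, 4.75 and 0.921 CPM against 15.6, 6.59 and 127 CPM. Neither passed in either fit, with mouse 3 on ACR far above the other ACR mice. Both genes that rose were also separate between the diets in LiKM mice, where Cyp4a32 went from 14.3, 16.5 and 14.9 CPM to 30.4, 37.6 and 43.7 CPM (log2 1.29, SE 0.20, edgeR adjusted p = 0.0865). Of 28 PPAR alpha targets tested, 1 rose, 2 were called higher in the 6-library fit (2.72% of all genes), 6 had ACR mice all above normal diet mice (13.4% of all genes) and 4 all below (14.6%), and the median log2 fold change was 0.08.

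Cholesterol synthesis genes had the highest median of the metabolic lists. Stard4, a carrier that moves cholesterol between membranes (chromosome 18, 33199138 to 33213862), stood at 91.1, 76.2 and 84.8 CPM on the normal diet and at 198, 195 and 148 CPM on ACR. It rose 2.15-fold (log2 1.10, SE 0.16, edgeR adjusted p = 0.02). Of the 25 genes of the list 1 rose, and 13 were called higher in the 6-library fit against 2.72% of all genes. ACR mice lay all above normal diet mice in 17, against 13.4% of all genes. Idi1, the isopentenyl diphosphate isomerase, stood at 105, 95.6 and 81 CPM against 218, 182 and 205 CPM (log2 1.10, edgeR adjusted p = 0.0613). Hsd17b7, an enzyme of a later step, stood at 59, 59.7 and 51.8 CPM against 103, 85.9 and 96.5 CPM (log2 0.74, 0.0621). Hmgcs1, the cytosolic HMG-CoA synthase, chosen as an example after its values were seen, stood at 115, 84 and 84.2 CPM against 355, 281 and 328 CPM (log2 1.77, 0.144). None of these 3 overlapped between diets, and all 3 were called in the 6-library fit. The median of the list was 0.60 (log2), 0.21 in LiKM mice and 0.28 with the clock components as covariates. Hmgcs1 stood at 332 CPM in LiKM mouse 3 on the normal diet, a level like that of LiK mice on ACR.

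Genes of fat synthesis and of the fed state lay lower on ACR. Agpat2, which adds the second acyl chain in triglyceride and phospholipid synthesis (chromosome 2, 26593057 to 26604417), stood at 223, 241 and 208 CPM on the normal diet and at 111, 108 and 92.7 CPM on ACR. It fell 2.16-fold (log2 -1.11, SE 0.14, edgeR adjusted p = 0.017). Of 23 tested genes of fatty acid and triglyceride synthesis 1 fell, 8 were called lower in the 6-library fit against 3.62% of all genes, and the median was -0.76. Fasn, the fatty acid synthase, stood at 7657, 3773 and 4679 CPM against 1440, 1387 and 2537 CPM (log2 -1.59, SE 0.42, edgeR adjusted p = 0.145). Acacb, the acetyl-CoA carboxylase of mitochondria, stood at 432 ± 18.9 and 255 ± 7.02 CPM (log2 -0.76, 0.147). The diets did not overlap in either.

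Of 14 genes induced by feeding, none rose or fell in the 12-library fit, but 6 were called lower in the 6-library fit (3.62% of all genes), 10 had ACR mice all below normal diet mice (14.6% of all genes), and the median was -1.10. Pklr, the liver pyruvate kinase, stood at 1380, 1016 and 1229 CPM against 618, 516 and 527 CPM. Among the 29 genes of glycolysis, gluconeogenesis and glycogen, 9 were called lower and 0 higher in the 6-library fit, against 3.62% and 2.72% of all genes. Ppp1r3b, which targets protein phosphatase to glycogen, stood at 605, 657 and 690 CPM against 96, 127 and 175 CPM (log2 -2.29, SE 0.57, edgeR adjusted p = 0.133). Pygl, the liver glycogen phosphorylase, stood at 681 ± 41.7 and 427 ± 10.7 CPM. In LiKM mice Ppp1r3b did not follow the diet: mouse 3 stood at 119 CPM on the normal diet and at 125 CPM on ACR, and the other 4 mice between 407 and 513 CPM. With the clock components as covariates the median of the feeding-induced genes was -0.38 and that of fatty acid and triglyceride synthesis -0.11.

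**Figure D3:**
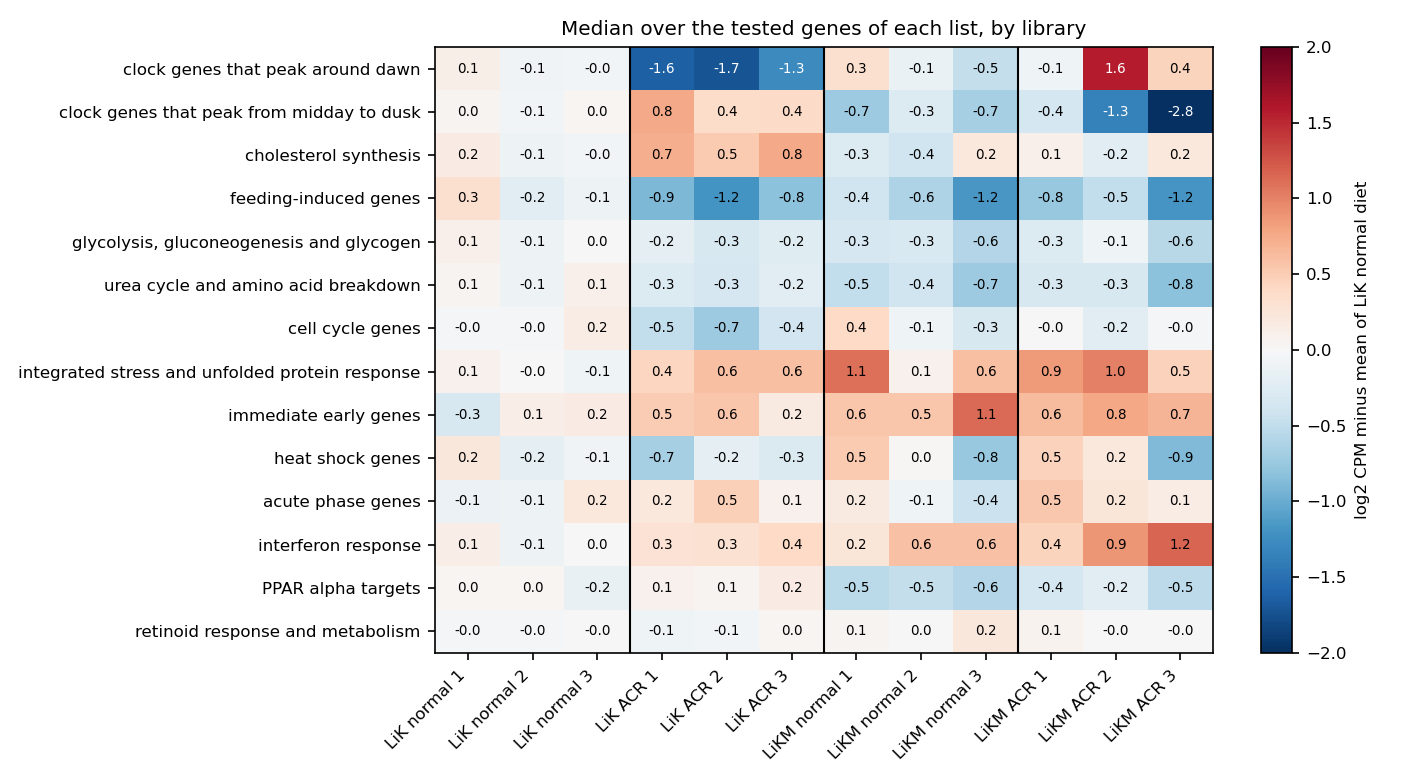
Median over the tested genes of each of 14 lists in each library, as log2 CPM minus the mean of the LiK normal diet mice (red above it, blue below it, number printed in each cell). The 3 LiK mice on ACR share one pattern across the clock, cholesterol, feeding and cell cycle lists, and LiKM mouse 3 of either diet shows the lower feeding-induced level too.

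Abcc3 (chromosome 11, 94343295 to 94393017), the exporter of bile acids and conjugates into blood, rose 2.27-fold, from 81.9, 60.4 and 53.7 CPM to 160, 118 and 168 CPM (log2 1.18, SE 0.18, edgeR adjusted p = 0.0223). It stood at 138, 110 and 149 CPM in LiKM mice on the normal diet and at 135, 153 and 138 CPM on ACR, about the range of the LiK mice on ACR. Of 24 tested genes of bile acid synthesis and transport, Abcc3 was the 1 that rose, and of 26 targets of the drug receptors CAR and PXR it was again the 1 that rose. The CAR and PXR list had a median of -0.35, with 4 called lower in the 6-library fit, against 3.62% of all genes. Cyp2c70, the bile acid hydroxylase of mice, stood at 604, 865 and 955 CPM against 208, 248 and 231 CPM (log2 -1.82, edgeR adjusted p = 0.138), and Acox2, the side-chain oxidase, at 145 ± 13.2 and 100 ± 12.3 CPM. Both were called lower in the 6-library fit.

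Slc39a4, the zinc importer ZIP4 (chromosome 15, 76612383 to 76618506), rose 2.81-fold, from 22.1, 14.1 and 12.3 CPM to 38.9, 48.9 and 48.6 CPM (log2 1.49, SE 0.20, edgeR adjusted p = 0.0179). In LiKM mice it was already at 60.8, 47.1 and 63.3 CPM on the normal diet and stood at 65.9, 75.3 and 76.4 CPM on ACR. The diet groups did not overlap in either strain.

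A pair of acute phase genes rose. Lbp, the plasma protein that binds bacterial lipopolysaccharide (chromosome 2, 158306493 to 158332852), rose from 39, 45.1 and 47.5 CPM to 89.4, 121 and 73.2 CPM (2.16-fold, log2 1.11, SE 0.16, edgeR adjusted p = 0.02). Il1rn, the antagonist of the interleukin-1 receptor (chromosome 2, 24336860 to 24351491), rose from 2.61, 0.962 and 1.84 CPM to 8.73, 6.99 and 8.64 CPM (4.56-fold, log2 2.19, SE 0.32, edgeR adjusted p = 0.0201). Its neighbour Psd4, an exchange factor for ARF proteins (24367558 to 24409870), rose from 2.95 ± 0.55 to 8.16 ± 0.787 CPM (2.79-fold). Of 27 acute phase genes 2 rose (0.13% of all genes), and 3 were called higher and 1 lower in the 6-library fit, against 2.72% and 3.62% of all genes. ACR mice lay all above normal diet mice in 9 of them, against 13.4% of all genes, and the median was 0.25. The one called lower was Hamp, the iron hormone hepcidin, at 945, 666 and 717 CPM against 475, 417 and 340 CPM. Lbp was also separate between the diets in LiKM mice (52.7, 49.9 and 48.3 CPM against 69, 72.4 and 60.1 CPM).

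Markers of blood cells were at low levels, other than those of red cell precursors and Cd74. The neutrophil sums were separate between the diets, while the B cell and T cell sums, to which Cd74 and Cd4 added much, overlapped. The median over each list, as log2 CPM minus the LiK normal diet mean, was separate in each. For neutrophils it was -0.39 to 0.46 on the normal diet and 0.75 to 1.74 on ACR. For B and plasma cells it was -0.10 to 0.04 and 0.70 to 1.31. For T and NK cells it was -0.28 to 0.13 and 0.68 to 1.32. The 6 neutrophil markers tested summed to 2.4, 5.66 and 4.27 CPM on the normal diet against 7.79, 9.86 and 7.41 CPM on ACR. The 7 B and plasma cell markers tested summed to 45.4, 81.6 and 39.4 CPM against 71, 107 and 196 CPM, most of it Cd74. The 11 T and NK cell markers tested summed to 6.41, 6.62 and 8.12 CPM against 6.92, 10.7 and 10.6 CPM. The neutrophil gene S100a8 (0.221 ± 0.0583 and 1.29 ± 0.784 CPM) and the B cell gene Cd79a (0.544 ± 0.0359 and 1.88 ± 0.648 CPM) were called higher in the 6-library fit. Of the 11 T and NK cell markers 10 had a log2 fold change above 0, against 51.3% of all genes, with a median of 1.05. In 4 of these 11, ACR mice lay all above normal diet mice, against 13.4% of all genes. The T cell gene Cd4 was the 1 below 0 (5.11 ± 1.08 and 3.29 ± 0.594 CPM), with groups that did not overlap. All 7 B and plasma cell markers were above 0 (median 1.14), and 3 had ACR mice all above normal diet mice. The 5 red cell precursor markers tested summed to 219, 313 and 524 CPM against 221, 221 and 233 CPM, which overlapped. Their median log2 fold change was -0.59, all 5 were below 0, and 1 was called lower in the 6-library fit. No marker of these lists passed with 12 libraries. Markers of Kupffer cells and macrophages (337 to 545 and 458 to 771 CPM) and of endothelium (363 to 556 and 505 to 631 CPM) overlapped between the diets. Within bulk tissue, more cells of a type and more RNA per cell cannot be told apart, and the part of these cells in the rise of Il1rn and Lbp was not tested. The interferon response had 26 of 30 genes above 0, against 51.3% of all genes, and a median of 0.38. Of the 30, 13 had ACR mice all above normal diet mice, against 13.4% of all genes. In the 6-library fit 1 of the 30, the deubiquitinase Usp18, was called higher (7.59 ± 1.1 and 12.7 ± 0.318 CPM), against 2.72% of all genes.

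**Figure D4:**
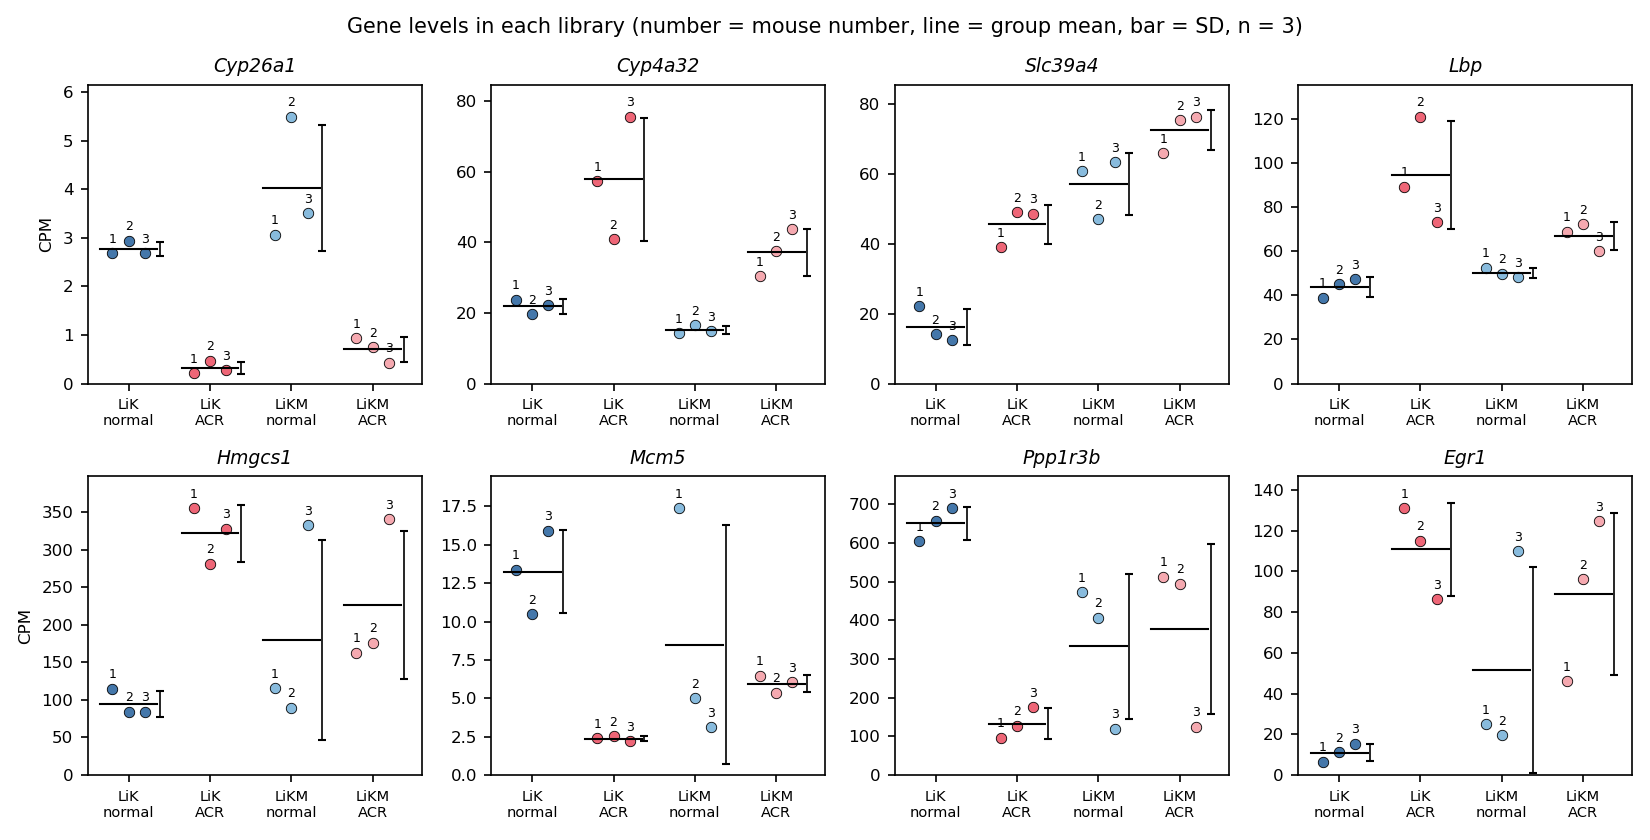
Levels of 8 genes in CPM on linear axes from 0 for each of the 12 mice, with the mouse number, a line at the group mean and a bar of 1 SD beside it (n = 3). Cyp26a1, Cyp4a32, Slc39a4 and Lbp are separate between the diets in both strains, while Hmgcs1, Mcm5, Ppp1r3b and Egr1 are separate in LiK and overlap in LiKM.

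Dab1, an adaptor of the reelin receptors (chromosome 4, 103619500 to 104744844), had the largest rise. It stood at 0.916, 0.17 and 0.502 CPM on the normal diet (13, 3 and 6.5 counts) and 5.19, 12.1 and 4.39 CPM on ACR (72, 182 and 63.5 counts). The rise was 14-fold (log2 3.80, SE 0.55, edgeR adjusted p = 0.02), a size that depends on the few counts of the normal diet mice. LiKM mice stood at 2.4 to 4.45 CPM on the normal diet and at 4.09 to 6.58 CPM on ACR, with overlap. Cpeb1, an mRNA-binding protein, rose 2.95-fold in LiK (2.77 ± 0.374 to 8.21 ± 2.58 CPM, edgeR adjusted p = 0.02), and its LiKM levels lay the other way (6.97 to 7.8 CPM on the normal diet against 4.39 to 4.91 CPM on ACR). Casc4 rose 2.39-fold (7.23 ± 0.95 to 17.3 ± 2.99 CPM, edgeR adjusted p = 0.0179), and its values are not whole in 12 libraries.

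The other genes that rose had log2 fold changes from 0.80 to 1.30. Tbcel, a tubulin chaperone-like protein, went from 81.1, 51.9 and 74.1 CPM to 156, 141 and 139 CPM (log2 1.07), and Narf, which binds prelamin A, from 36.3, 36 and 44.6 CPM to 83.5, 88.1 and 67.4 CPM (log2 1.03). The smallest of these changes were those of Sel1l3 (29.4 ± 1.61 to 52.8 ± 5.09 CPM, log2 0.85) and Plekha6 (67.6 ± 8.24 to 117 ± 11 CPM, log2 0.80), each with small spread within a group. Ccdc149 (2.6 ± 0.487 to 5.81 ± 0.418 CPM), Cyfip2, a regulator of actin (1.89 ± 0.143 to 4.67 ± 0.669 CPM), and Tmem132a (1.3 ± 0.036 to 3.1 ± 0.322 CPM) were low throughout. The edgeR adjusted p of these 7 genes ran from 0.02 for Sel1l3 to 0.0488 for Plekha6 and Ccdc149.

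Of the genes that fell, Mreg, or melanoregulin, a protein of lysosome and melanosome transport (chromosome 1, 72159233 to 72212314), went from 29.7, 33 and 29 CPM to 11.2, 11.3 and 9.88 CPM (2.83-fold, log2 -1.50, SE 0.20, edgeR adjusted p = 0.0179). In LiKM mice it lay the other way, at 16.6, 20.7 and 11.9 CPM on the normal diet and at 24.6, 39.1 and 35.2 CPM on ACR. The diet effects of the strains differed by 2.51 on the log2 scale (edgeR adjusted p = 0.0201), and Mreg was the 1 gene of 13880 (0.0072%) with such a difference. Slc45a3, a member of a sugar transporter family, fell 3.19-fold (44.4, 51.9 and 42.1 CPM to 15.6, 13.2 and 14.7 CPM). Ormdl3, which holds back sphingolipid synthesis, fell 1.86-fold (119, 109 and 111 CPM to 64.6, 60.7 and 57.1 CPM). Net1, an exchange factor for RhoA, fell 1.94-fold (72.8, 74 and 55.9 CPM to 33.9, 33.8 and 36.8 CPM). The edgeR adjusted p was 0.0452, 0.0488 and 0.0373.

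Tmie and Als2cl, which lie end to end on chromosome 9 (110865687 to 110880073 and 110880120 to 110900530), both fell. Tmie, a protein of the hair cell transduction channel, went from 32.4, 20.7 and 32.5 CPM to 8.58, 7.52 and 8.99 CPM (3.4-fold, edgeR adjusted p = 0.0352). Als2cl, a relative of the Rab5 exchange factor alsin, went from 48.8, 47.4 and 58.1 CPM to 27.5, 28.3 and 30.7 CPM (1.78-fold, edgeR adjusted p = 0.017). Whether reads of one were counted to the other was not tested. The carboxylesterase pseudogene Ces2d-ps fell 2.61-fold (17.8 ± 0.953 to 6.81 ± 1.04 CPM, edgeR adjusted p = 0.0488), with values that are not whole in 10 libraries, and is uncertain.

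Cell cycle genes lay lower on ACR in LiK. Of 30 tested, none passed with 12 libraries, 11 were called lower in the 6-library fit against 3.62% of all genes, 15 had ACR mice all below normal diet mice against 14.6%, and the median was -0.55. Mcm5, a subunit of the replicative helicase, stood at 13.4, 10.5 and 15.9 CPM on the normal diet and at 2.38, 2.53 and 2.2 CPM on ACR (log2 -2.48, SE 0.52, edgeR adjusted p = 0.0901). Mcm7 of the same helicase stood at 18 ± 0.783 and 9.04 ± 1.92 CPM (log2 -0.99, 0.0613), and Rrm2, of the enzyme that makes deoxynucleotides, at 31.9, 22.9 and 28.7 CPM against 4.33, 3.53 and 6.93 CPM (log2 -2.50, 0.0621). The list's median was -0.60 with the clock components as covariates and 0.08 in LiKM mice.

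Immediate early genes, the first to respond to growth factors and stress, had 4 of 18 called higher in the 6-library fit, against 2.72% of all genes, and a median of 0.41. Egr1 stood at 6.55, 11.3 and 15.3 CPM against 131, 115 and 86.3 CPM (log2 3.33, SE 0.68, edgeR adjusted p = 0.092), and Junb at 9.65, 15.3 and 17.3 CPM against 55, 47.1 and 38.5 CPM (log2 1.73, 0.108). Genes of the integrated stress and unfolded protein response had 8 of 26 called higher and 1 lower, against the same 2.72% and 3.62% of all genes, with a median of 0.41. Trib3, a pseudokinase induced by ATF4, stood at 2.75, 1.58 and 2.34 CPM against 14.7, 8.39 and 13.4 CPM, and Nupr1, a stress-induced chromatin protein, at 0.971 ± 0.339 and 4.22 ± 0.615 CPM. Heat shock genes had none called in either fit, but 11 of 18 had ACR mice all below normal diet mice, against 14.6% of all genes, and the median was -0.39. Of 33 genes of the urea cycle and amino acid breakdown, 7 were called lower (3.62% of all genes) and 1 higher (2.72%) in the 6-library fit. Those called lower included Asl (560, 603 and 534 CPM against 235, 222 and 320 CPM) and Ass1 (1242, 1480 and 1638 CPM against 856, 957 and 941 CPM), the lyase and synthetase of the cycle.

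Glucocorticoid response genes split. Zbtb16, a zinc finger factor, stood at 56.7, 27.9 and 67 CPM against 5.77, 7.99 and 6.04 CPM (log2 -2.93, SE 0.83, edgeR adjusted p = 0.171), and Fkbp5, a chaperone of the receptor, at 68.3, 81.6 and 73 CPM against 33, 23.9 and 31.8 CPM (log2 -1.33, 0.337). Sgk1, a kinase, stood at 13.3, 25 and 17.3 CPM against 39.8, 31.8 and 43.2 CPM (log2 1.04, 0.258). All 3 were called in the 6-library fit.

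Genes at the centre of the study's model did not pass the 12-library test. Mdm2 stood at 24.4 ± 1.24 CPM on the normal diet and at 22.5 ± 0.989 CPM on ACR (log2 -0.12, SE 0.21, edgeR adjusted p = 0.825), and Trp53 at 16.6 ± 2.66 and 16.9 ± 2.36 CPM. Cdkn1a, the p53 target that halts the cycle, stood at 6.97, 3.62 and 5.95 CPM against 1.73, 1.66 and 1.99 CPM (log2 -1.60, SE 0.76, edgeR adjusted p = 0.374, 0.0172 in the 6-library fit). Over the whole list of 33 p53 targets the median was 0.01, with 17 genes above 0 and 16 below. Ctgf, the matricellular growth factor, stood at 8.52, 9.34 and 5.53 CPM against 16.4, 11.5 and 7.96 CPM, and Mycn at 2.47, 3.79 and 2.26 CPM against 2.74, 3.13 and 5.14 CPM, both with overlap.

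In LiKM mice the libraries whose clock genes stood apart came from both diets. Of the 27 genes, 7 were separate between the diets in LiKM in the same direction (Cyp26a1, Als2cl, Slc39a4, Casc4, Lbp, Cyp4a31 and Cyp4a32), 3 in the opposite direction (Mreg, Tmem132a and Cpeb1), and 17 overlapped. By sign alone, 11 of the 27 had a LiKM log2 fold change in the same direction as in LiK. Over all genes tested, 3.94% were separate upward and 6.7% downward in LiKM. Each LiKM library was then set against the mean of the 6 LiKM libraries, and the genes called in the 6-library LiK fit were counted that deviated to the side seen on ACR in LiK. Mouse 3 on the normal diet had 726 of 812 (89.4%) on that side and mouse 3 on ACR 666 (82%), while the other 4 mice, of both diets, had 192 to 250 (23.6% to 30.8%). Since each library was set against the mean of the same 6, libraries far to one side move the others to the opposite side, and the low shares of the other 4 mice are no separate result. Both mouse 3 libraries lay at -4.08 and -4.82 on the second clock component, where LiK mice on ACR also lay below 0, and the other 4 between 1.82 and 2.56. On the first clock component, which holds more of the variance, they lay at -0.153 and -9.18, away from the LiK mice on ACR at 4.2 to 5.88. With the core clock genes left out, the counts were 716 and 663 of 801. Among all genes, 63.6% and 62.9% lay on that side in the mouse 3 libraries. For the 27 genes of the 12-library fit, the counts were 18 and 17 in the mouse 3 libraries, 14 and 11 in LiKM mice 1 and 2 on ACR, and 8 and 9 in mice 1 and 2 on the normal diet.

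**Figure D5:**
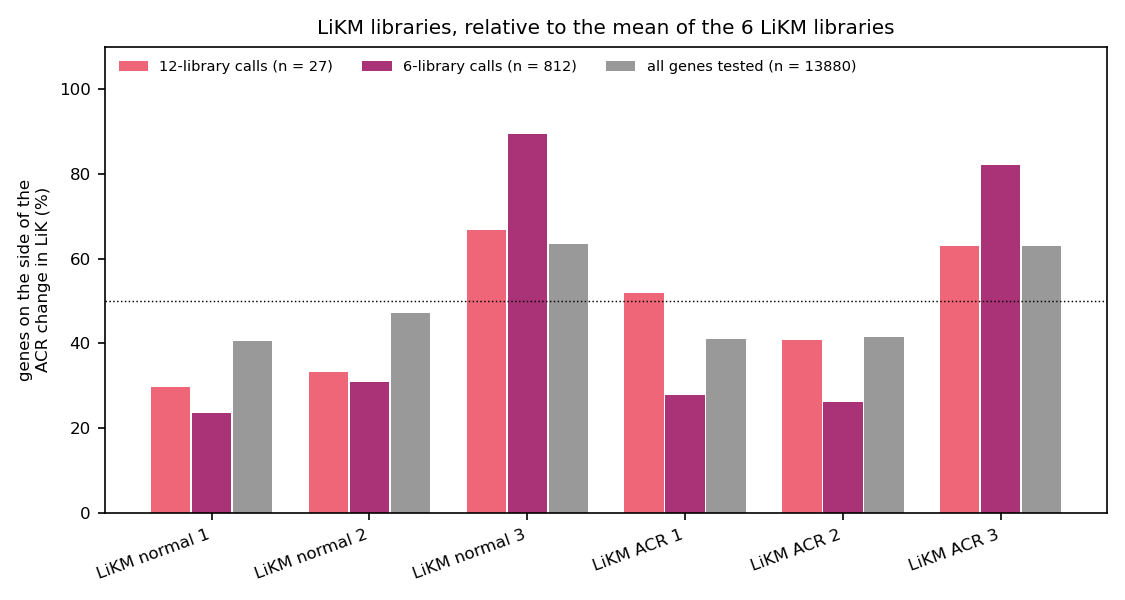
Percent of genes that deviate, in each LiKM library, to the side seen on ACR in LiK, for the 27 genes of the 12-library fit, the 812 of the 6-library fit and all 13880 genes tested. For the 812 genes the mouse 3 libraries of both diets stand at 89.4% and 82%, and the other 4 between 23.6% and 30.8%.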

How the data were processed

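RNA sequencing libraries of 12 livers (3 mice per strain and diet) were made with a stranded mRNA kit, per the labels' protocols. The deposited table holds expected counts per gene symbol, of which 18.9% of those above 0 are not whole (tolerance 1e-09). Counting used featureCounts 2.0.0 and the build was mm10, per the submitters' processing notes. The sources used here name no aligner, annotation, strand setting or treatment of shared reads, so overlapping genes and near-identical copies are uncertain. The table lists 24421 genes, 5382 of them at 0 in all libraries, and 0 columns belonged to other samples. Counts were rounded. Genes with few counts were removed with filterByExpr (13880 tested) and libraries scaled by TMM. The main test was edgeR 4.0.16 (R 4.3.3), glmQLFit with robust estimation and glmQLFTest, on 12 libraries with 1 coefficient per group, with p-values adjusted over all genes at 0.05. A prior count of 2 was added for log2 CPM. The test was tested on simulated data. Alternatives were the 6 LiK libraries alone, DESeq2 1.42.0, other scaling and filters, clock gene components, the identifier prefix and leaving out each mouse. The fit without 3 LiKM libraries was chosen after seeing the data. Pairs of libraries within a LiK group differed by more than counting error (chi-square divided by its degrees of freedom 15.7 to 50.3).

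Members and gene lists were chosen with earlier results of these data known. Named genes are Mdm2, Trp53, Cdkn1a, Ctgf, Cyp26a1, Rarb, Mycn, 17 core clock genes, all genes past the threshold with no overlap and a mean of 5 CPM or more in the higher group, and up to 3 of smallest p per list. A few genes picked this way are not reported here. Cyfip2 and Tmem132a passed the threshold below that level and were named after their values were seen. Lists are described by counts and medians without a set test.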

Additional observations from a re-analysis of the deposited data

Results flagged for a closer look

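Mreg stood out because the diet effects of the strains differed by a test of the difference itself. The LiKM effect minus the LiK effect was 2.51 on the log2 scale (edgeR adjusted p = 0.0201 over 13880 genes). Mreg was lower on ACR in 3 of 3 LiK mice and higher in 3 of 3 LiKM mice. Both mouse 3 libraries of LiKM, whose clock genes stood apart, lay at 11.9 CPM on the normal diet and 35.2 CPM on ACR. With the clock components as covariates the LiK effect was -0.91. The part of the clock phase in the difference was not tested. The number of genes with such a difference was 0 without any 1 of the 6 LiK mice and 0 without LiKM mouse 2 on ACR.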

How the results depend on the processing

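The count of genes changed by diet in LiK, 27 with 18 higher and 9 lower, became 812 (348 higher, 464 lower) with the 6 LiK libraries alone, 390 (223 and 167) with DESeq2, and 624 (259 and 365) without LiKM normal diet 3 and LiKM ACR 2 and 3 together. The number lower was 15 without a filter on low counts. The identifier prefix as covariate left 16 genes, 10 higher, of which 6 were among the 27. With clock component 1, or components 1 and 2, as covariates edgeR called 0 genes, 0 higher and 0 lower (2115 and 1000 at an unadjusted p under 0.05). Leaving out 1 mouse gave 0 to 108 genes, 0 to 61 higher and 0 to 47 lower. It was 0 when LiK normal diet mouse 2 or 3 or LiK ACR mouse 1 was left out, 9 without LiK normal diet mouse 1, 12 and 13 without LiK ACR mouse 2 and 3, 54 and 108 without LiKM normal diet mouse 1 and 3, and 41 and 53 without LiKM ACR mouse 2 and 3. The cause was not tested. The sign of all 27 genes held under each alternative run.

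Genes with a different diet effect in the strains numbered 1, against 155 with DESeq2, 16 with library size alone, 2 without a filter, 15 without those 3 LiKM libraries, 0 with clock component 1, clock components 1 and 2 or the prefix, and 0 to 20 when 1 mouse was left out.

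Same-numbered mice are not paired by any label, and their deviations correlated at 0.02, -0.05 and -0.07 between the LiK diets. With the replicate number as a block within strain, edgeR called 551 genes, 245 higher and 306 lower, and 146 with a different diet effect.

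Signs turned in genes that had not passed. With clock components 1 and 2 this held for Mdm2 (0.29), Trp53 (-0.20), Cdkn1a (0.47), Clock (0.24), Cry1 (0.48), Nr1d1 (-0.47), Nr1d2 (-0.59), Dbp (-0.61), Tef (-0.073), Hlf (0.29), Per2 (0.38), Cry2 (0.28) and Hspe1 (0.035). With clock component 1 it held for Mdm2 (0.32), Tef (-0.66), Per3 (-0.87) and Gys2 (-0.017). With the prefix it held for Mdm2 (0.14), Ctgf (-0.026), Rarb (0.020), Mycn (-0.070), Tef (-0.62), Per1 (-0.48), Per3 (-0.68) and Gys2 (-0.090). Library size alone, which moved the median of all genes by 0.12, turned Mdm2 (0.0094), Rarb (0.062) and Cry2 (0.071). With 1 mouse left out, Trp53 ran from -0.065 to 0.17, Rarb from -0.24 to 0.031 and Cry2 from -0.13 to 0.016. Genes such as Cyp26a1, Npas2 and Dab1 with few counts in a group have uncertain sizes of change.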

Other observations

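In a few genes not described so far the mice of a group lay far apart. Cyp8b1, the sterol hydroxylase that makes cholic acid, stood at 28.1, 311 and 32.9 CPM on the normal diet in LiK and at 31.1, 14.3 and 18.5 CPM on ACR, with mouse 2 on the normal diet far above the others. Sult5a1, a sulfotransferase higher in male liver, stood at 8.31, 6 and 5.19 CPM against 0.216, 2 and 1.85 CPM, with no overlap. Vldlr, a lipoprotein receptor of the stress response list, stood at 0.775, 0.849 and 0.754 CPM against 4.69, 1.27 and 4.39 CPM, with mouse 2 the lowest on ACR. The 13 pancreatic acinar genes summed to 390, 214 and 332 counts on the normal diet and 243, 534 and 1073 counts on ACR, the most in mouse 3, which was also the highest of the LiK mice for Cyp4a14.

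Among receptor pathways, targets of LXR (median log2 fold change 0.17 over 14 genes), FXR (0.03 over 11) and NRF2 (-0.26 over 21) had 1, 2 and 0 genes called higher and 1, 0 and 0 called lower in the 6-library fit. Over all genes, 2.72% were called higher and 3.62% lower in that fit. Targets of YAP and TEAD had 0 of 12 called in that fit and a median of -0.06. Genes of male-biased liver expression had a median of -0.29 with 2 of 23 called lower, against 3.62% of all genes. Progenitor and biliary markers had a median of 0.72 with 0 of 8 called, and their summed level overlapped between the diets, at 119, 91.4 and 112 CPM against 307, 169 and 64.9 CPM.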
